A study of Homo sapiens with 8 samples.

Results

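Replication origins that lie at the ends of protein-coding genes were examined in 4 HCT116 lines. An origin was taken as a gene-end origin when it overlapped the 1 kb on either side of the 3′ end of a protein-coding gene of GENCODE release 44, read on the strand of the gene, and lay more than 1 kb from the start of every protein-coding gene. Of the origins on chromosomes 1 to 22, these were 1096 of 41785 in the table of WT and *ORC1Δ* cells, 1205 of 43698 in the table of WT and *ORC2Δ* cells, and 1248 of 46021 in the table of WT and *ORC5Δ* cells. Merged over the tables, they made up 1431 loci, of which 982 were gene-end origins in all 3 tables, 148 in 2 tables, and 301 in 1 table. Of the 1431 loci, 637 (44.5%) overlapped an origin on each of the 4 lists.

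The lines were HCT116 p53−/− human colon cancer cells (WT) and 3 lines made from them by CRISPR–Cas9, each lacking 1 subunit of the origin recognition complex (ORC). Therefore all 4 lines lack p53. Per the study, *ORC1Δ* cells keep ORC2 to ORC6 on chromatin, *ORC2Δ* cells keep ORC1 and ORC6 alone, and *ORC5Δ* cells keep ORC1, ORC2, ORC3, and ORC6. Origins were mapped by SNS-seq, the sequencing of short nascent strands, in 8 samples, 2 biological replicates of each line. The deposited tables merge the replicates of a line, so that no spread between replicates and no test between lines can be given. The intervals of single log2 folds below cover the counting error of reads only. They take each read as a separate molecule, so they are too narrow if PCR copies were kept. The Wilson intervals of shares treat origins or gene ends as independent, which neighboring ones may not be. They hold no error of reads or of replicates. The 3 comparisons share the WT cells and are given side by side.

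ORC binds DNA and, with CDC6 and CDT1, loads the MCM2–7 helicase at the sites from which replication can begin. Mapped human origins gather near gene starts, where DNA is open and rich in CpG. The end of a gene is a different setting. RNA polymerase II transcribes the polyadenylation signal, commonly AATAAA on the strand of the gene, the RNA is cut shortly beyond it, and the polymerase is released further downstream. Transcription and replication meet there, and where neighboring genes face each other, so do their polymerases.

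The sequences below show strand asymmetry in short windows of single gene-end origins. Each is the 30-base window with the largest excess of G over C, or of C over G, in its origin, 5′ to 3′ on the strand of the gene, with runs of at least 2 of the richer base in capitals. They were picked for this excess, so that high and low origins alike show it and the windows do not tell the groups apart. The richest window of SLC16A3, which had the highest log2 fold in *ORC1Δ* and *ORC2Δ* cells among gene-end origins with at least 100 reads, holds 13 G of 30 bases and is not printed. Also among the highest and not printed are C19orf12 (18 G), KLK15 (17 G), DDT (15 C), ARHGAP40 (14 G), and ZSWIM4 (19 C). The printed windows thus do not show what the highest origins have in common. The first group comes from some of the gene-end origins that were highest in knockout cells relative to WT. They are SLC45A1 at chr1:8344794-8344823, TMEM270 at chr7:73866534-73866563, SLC35C2 at chr20:46345077-46345106, and ATP5MC2 at chr12:53632199-53632228 on hg38, on the plus strand but for SLC35C2 and ATP5MC2.
SLC45A1: CCatCCatCCacatatCCaCCCatCCaCCC
TMEM270: CCaCCCatCCatCCCtCCaCCCatCCaCCC
SLC35C2: GGatGGGttGGtGGatGGctGGatGGGtGG
ATP5MC2: CCttCCttCCCtCCCtCCCtCCCtCCCtCC
The second group comes from some of the lowest, with DRD4 at chr11:640321-640350 and CYP2W1 at chr7:988874-988903 on the plus strand and DDRGK1 at chr20:3190078-3190107 on the minus strand. A window need not match its origin, since the whole DRD4 origin has more C than G on the strand of the gene.
DRD4: tgaGGGGcGGGGaGGagaGGaGGGGGGGGG
CYP2W1: tCCtCCCaCCCtctctCCtCCCaCCCCaca
DDRGK1: gaaGGaGGGcGGGGGGtcagtgaaGGagag
The next window comes from the origin of TPGS1, among those with the most WT reads, at chr19:518167-518196 on the plus strand.
TPGS1: tGGGagtgctGGtGGGGtGGGGaGGGGaGG
The last window holds an AATAAA motif before the end of ERAL1, in capitals, at chr17:28861023-28861052, inside the origin with the lowest log2 fold in *ORC1Δ* cells.
ERAL1: gtcttggatactAATAAAatataagcattc

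To see where origins sit relative to the gene end, the share of gene ends covered by an origin was taken at each distance, over 19007 gene ends and without positions within 1 kb of a gene start. Of the positions sampled every 250 bp within 10 kb, the last base of the gene was the least often covered in each line. In WT cells, 158 of 17777 gene ends had an origin over the last base, which is 0.889% (95% Wilson interval 0.761% to 1.04%). At 750 bp inside the gene, WT origins covered 276 of 17733 positions (1.56%, 1.38% to 1.75%), and at 2000 bp beyond the end, 291 of 17864 (1.63%, 1.45% to 1.83%). Over the 66 positions from 2 to 10 kb on either side, the WT share stayed between 1.22% and 1.65%.

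The rule's limit of 1000 bp fell on no step in the values. In the table of *ORC1Δ*, the 79 gene-end origins in the outermost 100 bp of the window had a median log2 fold of −0.17, and the 92 origins in the next 100 bp, just outside the rule, had −0.19. With *ORC2Δ* these were −0.08 (109) and −0.07 (88), and with *ORC5Δ* −0.02 (98) and −0.03 (97).

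The same minimum stood at the gene end in the knockout lines, at 0.624% (0.519% to 0.751%) in *ORC1Δ* cells. It was 0.956% (0.823% to 1.11%) in *ORC2Δ* cells and 1.09% (0.949% to 1.26%) for *ORC5Δ*. Relative to WT, origins of *ORC1Δ* cells were fewest there, with a ratio of covered gene ends of 0.703 at the last base and 0.770 at 500 bp inside the gene. From 2 to 10 kb, that ratio ran from 0.910 to 1.11. For *ORC2Δ* cells the ratio was 1.08 at the last base and 1.12 to 1.34 from 2 to 10 kb, and for *ORC5Δ* cells it was 1.23 and 1.17 to 1.42. The GC content of the genome itself was lowest at the last base, at 40.8% in 250 bp windows, against 45.1% to 46.2% from 2 to 10 kb. The part of base composition in this pattern was not tested.

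**Figure D1:**
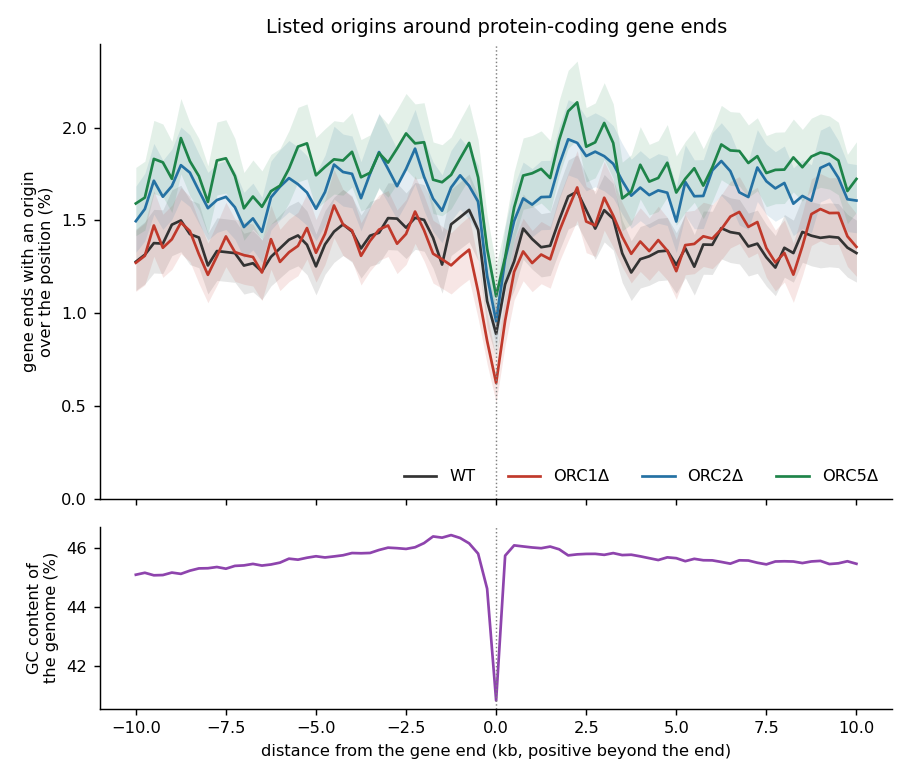
Share of protein-coding gene ends with a listed origin over the position (upper panel, percent, with 95% Wilson bands) and GC content of the genome (lower panel, percent) by distance from the gene end in kb, positive beyond the end. The 4 lines show a minimum at the last base, 0.889% in WT and 0.624% in *ORC1Δ* cells, where GC content is 40.8%.

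Gene-end origins lay on both sides of the end. In the table of WT and *ORC1Δ*, 479 were inside the gene, 170 lay across the end, and 447 lay beyond it, with 531, 194, and 480 in the table of *ORC2Δ* and 546, 208, and 494 in that of *ORC5Δ*. A 3′UTR was overlapped by 43.0% of gene-end origins in the first table, 44.6% in the second, and 44.95% in the third, against 2.54% to 2.68% of all origins. Coding sequence was overlapped by 26.6%, 27.9%, and 27.2%, against 9.66%, 10.4%, and 10.2% of all origins. Among those across the end, 57.6% of the 170 in the first table covered a gene end with AATAAA in the last 40 bp, as did 54.6% of 194 and 56.3% of 208 in the others. Of all gene ends, 56.7% had the motif there, so gene ends with an origin held it about as often as others.

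The density of gene-end origins differed between chromosomes. In the table of WT and *ORC5Δ*, chromosome 19 had 219 of them at 1470 gene ends, or 14.9 per 100 gene ends, and chromosome 22 had 13.2. Chromosome 17 followed at 8.88. At the other extreme, chromosome 18 had 2.63 and chromosome 13 had 3.10 per 100. Most had 1 gene end within 1 kb, but 106 of 1248 had more, and 89 lay where genes on both strands end. The origin with the most ends in reach lies across the shared end of the protocadherin gamma cluster, at chr5:141512520-141513001, which is the end of 22 gene records. It overlaps 3′UTR and no coding sequence. It had 108 WT and 79 *ORC1Δ* reads, so that its log2 fold was −0.51 (−0.95 to −0.08 by exact Clopper-Pearson interval at 95%), which was −0.02 in *ORC2Δ* and −0.15 in *ORC5Δ* cells.

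Gene-end origins were richer in GC than origins overall and less so than those at gene starts. Their median GC content was 57.0% in the first table (quartiles 51.4% and 62.3%), against 52.5% for all origins and 62.6% for origins within 1 kb of a gene start. Unlike origins at gene starts, they were poor in CpG. The observed over expected CpG had a median of 0.281 at gene ends and 0.633 at gene starts, and 0.251 over all origins. A G-quadruplex motif, which is 4 runs of at least 3 G with loops of 1 to 7 bases on either strand, was present in 63.8%, 66.6%, and 63.6% of gene-end origins of the 3 tables, with 48.8%, 53.0%, and 50.3% over all origins and 73.1%, 74.2%, and 73.6% at gene starts. Median width was 539 bp, against 534 bp over all origins and 607 bp at gene starts, and longer origins have more room for a motif.

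GC skew, the difference of G and C over their sum, was then read on the strand of the gene, over origins inside 1 gene or beyond its end and outside other genes. Origins deep in genes more often had an excess of G. From 5000 to 3000 bp before the end, 45.9% had more C than G in the table of *ORC1Δ* (326 of 710, 95% Wilson interval 42.3% to 49.6%). From 3000 to 500 bp before the end, the bins had 52.9%, 51.4%, and 54.6%. In the last 500 bp of the gene the share with more C was 67.7% (105 of 155, 60.03% to 74.6%). In the first 500 bp beyond the end it was 45.1% (69 of 153, 37.4% to 53.0%). Further out the share was 54.1% (46.6% to 61.3%) from 500 to 1000 bp, 57.7% (51.7% to 63.5%) from 1000 to 2000 bp, and 50.7% (45.1% to 56.2%) from 2000 to 3000 bp beyond the end. The intervals of these 3 bins overlap that of the first 500 bp in this table. In the table of *ORC2Δ*, the interval from 500 to 1000 bp (57.0%, 49.7% to 64.0%) lies just above that of the first 500 bp (41.9%, 34.7% to 49.5%).

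The tables of *ORC2Δ* and *ORC5Δ*, which hold largely the same loci, gave 67.9% (112 of 165) and 68.2% (118 of 173) in the last 500 bp, and 41.9% (70 of 167) and 45.8% (77 of 168) in the first 500 bp beyond. The median skew changed from −0.23 in the last 500 bp to 0.14 just beyond in the first table. The genome at gene ends turned in the same direction. Its mean skew on the strand of the gene, in 250 bp windows, was lowest within 10 kb at 250 bp before the end, at −0.0056, and highest at the last base, at 0.018, against −0.0043 to 0.014 from 2 to 10 kb. The part of this background in the skew of the origins was not tested.

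**Figure D2:**
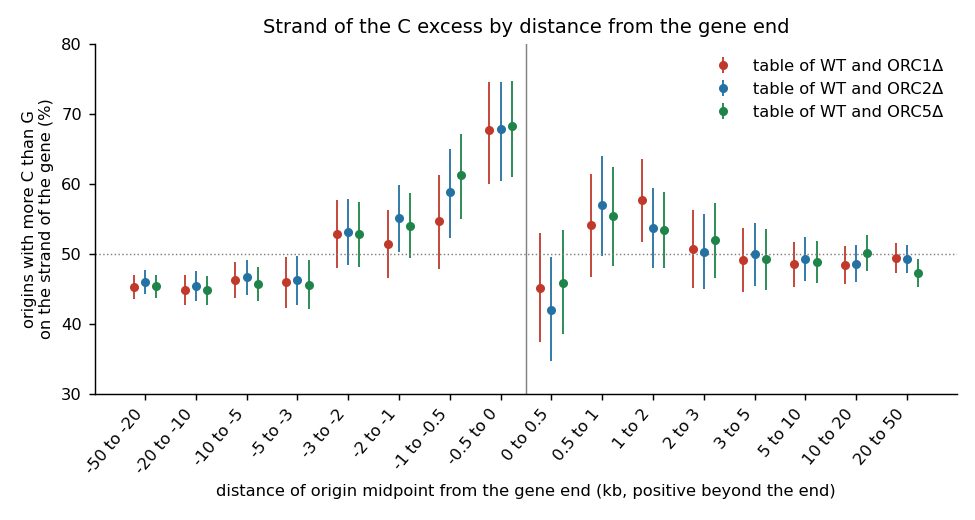
Percent of origins with more C than G on the strand of the gene, by distance of the origin midpoint from the gene end in kb (positive beyond the end), with 95% Wilson intervals, for the 3 tables. The bin of the last 500 bp of the gene stands highest, at 67.7% to 68.2%, and the next bin, just beyond the end, lies at 41.9% to 45.8%.

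Most gene-end origins were found in more than 1 line. Of the 934 gene-end origins on the WT list, 671 (71.8%, 95% Wilson interval 68.9% to 74.6%) overlapped an *ORC1Δ* origin, 797 (85.3%, 82.9% to 87.5%) an *ORC2Δ* origin, and 829 (88.8%, 86.6% to 90.6%) an *ORC5Δ* origin. Over all 29908 WT origins on these chromosomes, the shares were 71.1%, 78.5%, and 82.6%. Matching origins in all 3 knockout lines were present for 620 (66.4%, 63.3% to 69.3%), against 60.4% of all WT origins, and 52 (5.57%, 4.27% to 7.23%) had none, against 8.20%.

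Gene-end origins took 3.12% of the WT list, 2.47% of the *ORC1Δ* list, 2.84% of the *ORC2Δ* list, and 2.78% of the *ORC5Δ* list. In the table of WT and *ORC1Δ*, 61.8% were on both lists, against 50.7% of all origins. On the WT list only were 263 (24%, against 20.7%) and on the *ORC1Δ* list only 156 (14.2%, against 28.6%). In the table of *ORC2Δ*, 137 (11.4%) were on the WT list only, against 14.7% of all origins, and 253 (21.0%) on the knockout list only, against 31.9%. In that of *ORC5Δ* these were 105 (8.41%), against 11.3%, and 297 (23.8%), against 35.3%. In each table, origins on the knockout list only thus took a smaller share at gene ends than overall. Gene starts were alike in this, with 13.8%, 22.3%, and 23.9%.

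Reads were then compared in RPM, the reads of an origin per 1e6 reads of its line in all origins of the table. Up and down here mean a change of 1.5-fold or more in RPM. Of the 3 knockout lines, *ORC1Δ* cells had the lowest median log2 fold at gene ends, and the difference between lines was not tested. Of 1096 gene-end origins, 72 (6.57%, 95% Wilson interval 5.25% to 8.19%) were down by 1.5-fold, against 3.95% of all origins, and 29 (2.65%, 1.85% to 3.77%) were up, against 7.00%. Their median log2 fold was −0.15 (quartiles −0.35 and 0.06), against −0.01 for all origins. Of the 1096, 765 (69.8%) had a log2 fold below 0, against 51.6% of all origins and 77.6% of those at gene starts. Origins at gene starts lay lower still, with a median of −0.22 and 10.5% down, while those elsewhere in genes had −0.01 and those outside genes 0.04. This order did not hold with the trend along GC content taken off, as described below, when gene starts had −0.0098 and gene ends −0.06. Nor did it hold in *ORC2Δ* cells, where gene starts had −0.04 (2.67% down) and gene ends −0.07 (3.15% down) before any correction. In *ORC5Δ* cells gene starts, at −0.033 (0.443% down), had a slightly lower median than gene ends, at −0.028 (0.641% down). In *ORC1Δ* cells the Clopper-Pearson interval of the log2 fold lay below 0 for 286 gene-end origins (26.1%) and above 0 for 82 (7.48%), with 14.5% and 14.6% over all origins.

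In *ORC2Δ* cells, 38 of 1205 gene-end origins (3.15%) were down, against 3.61% of all origins, and 16 (1.33%, 0.819% to 2.15%) were up, against 4.62%. The median log2 fold was −0.07 (quartiles −0.22 and 0.08), against −0.04. In *ORC5Δ* cells, 8 of 1248 (0.641%) were down, against 0.682%, and 13 (1.04%, 0.610% to 1.77%) were up, against 2.05%. Here the median was −0.03 (quartiles −0.15 and 0.11), against −0.0038. In both lines the share down was thus near that of all origins, and the share up was below it. Many calls down were in origins of lower count. With at least 200 reads of both lines, 39 of 788 were down in *ORC1Δ* cells (4.95%, against 2.75% of all origins with as many reads), 13 of 877 in *ORC2Δ* cells (1.48%, against 1.52%), and 0 of 954 in *ORC5Δ* cells (against 0.247%). All origins thus also had fewer calls down at this count.

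**Figure D3:**
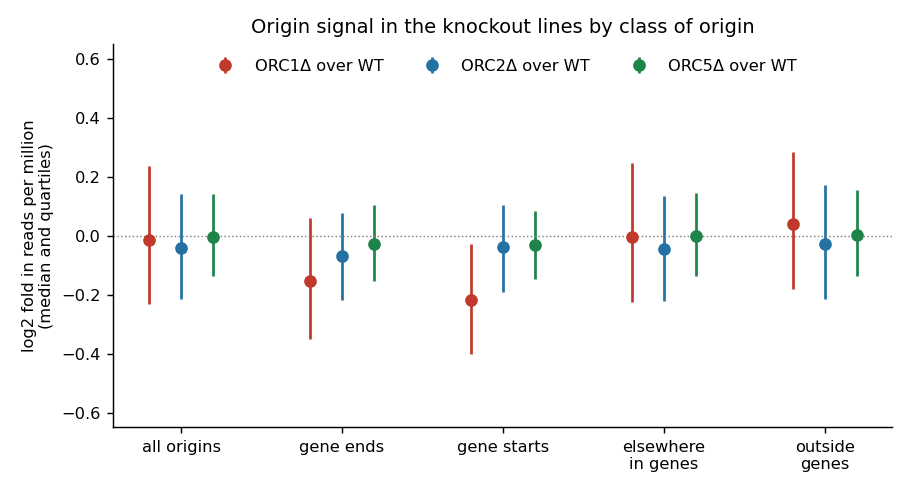
Median log2 fold in RPM of each knockout line over WT (points) with quartiles (bars) for all origins, origins at gene ends, at gene starts, elsewhere in genes, and outside genes. Gene-end origins of *ORC1Δ* cells have a median of −0.15, between gene starts at −0.22 and origins elsewhere in genes at −0.01. With GC content corrected for, they have −0.06, below gene starts at −0.0098. In *ORC2Δ* cells gene ends, at −0.07, lie below gene starts, at −0.04, without correction. In *ORC5Δ* cells gene ends, at −0.028, lie slightly above gene starts, at −0.033.

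In *ORC1Δ* cells the log2 fold was lower for gene-end origins inside the gene or across its end than beyond it. The median was −0.20 for the 479 inside the gene and −0.23 for the 170 across the end, and −0.09 for the 447 beyond it. Those that overlapped a 3′UTR had a median of −0.23, with 34 of 471 down and 5 up, and those that did not had −0.10, with 38 of 625 down and 24 up. Where ends of genes on both strands lay in reach, the median of 78 origins was −0.24, with 10 down (12.8%, against 3.95% of all origins) and 0 up (against 7.00%). Their median GC content was 60.3%, and all origins with 60% to 65% GC had a median of −0.21 and 7.24% down. In *ORC2Δ* cells the medians were −0.07 inside, −0.09 across, and −0.06 beyond, and in *ORC5Δ* cells −0.03, −0.04, and −0.01. Of the origins in a 3′UTR, 0 of 561 were up in *ORC5Δ* cells, against 1.04% of gene-end origins and 2.05% of all origins, and 1 of 538 (0.186%) in *ORC2Δ* cells, against 1.33% and 4.62%. Their median absolute skew was lower than that of other gene-end origins, at 0.269 against 0.325 with *ORC5Δ* and 0.273 against 0.325 with *ORC2Δ*.

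Base composition moved with these values. In *ORC1Δ* cells the median log2 fold of gene-end origins was 0.11 at a GC content under 45% (94 origins) and −0.35 at 65% and above (161 origins). All origins in the same ranges had 0.22 and −0.32. The 699 gene-end origins with a G-quadruplex motif had −0.21, and the 397 without one had −0.03. When the running median of the log2 fold along GC content over all origins was taken off, the median at gene ends became −0.06 for *ORC1Δ*, −0.02 for *ORC2Δ*, and −0.01 for *ORC5Δ*, with 42 down (3.83%, against 2.84% of all origins) and 23 up (2.10%, against 4.68%) in *ORC1Δ* cells. With the trend along absolute GC skew also taken off, which was decided on after the data were seen, it was −0.03, −0.0043, and −0.0023. In *ORC1Δ* cells 20 were then down (1.82%, against 2.04% of all origins) and 16 up (1.46%, against 2.76%), so that the share down no longer exceeded that of all origins. The part of base composition in the differences between lines was not tested further.

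Gene-end origins with a strong strand asymmetry were higher in each knockout line. Where the absolute GC skew reached 0.6, the median log2 fold was 0.36 for 35 origins in *ORC1Δ* cells, 0.32 for 38 in *ORC2Δ* cells, and 0.28 for 41 in *ORC5Δ* cells. Among them 10 (28.6%), 8 (21.1%), and 7 (17.1%) were up, against 49.0%, 40.03%, and 23.8% of all origins with such skew. In each line 0 were down. Of all origins with such skew, 0.390% were down in *ORC1Δ* cells, so the 0 of 35 does not set gene ends apart. Origins of such skew are few at gene ends, 3.19% of the members in the first table against 6.75% of all origins. Under a skew of 0.2, the medians were −0.29, −0.12, and −0.07. All origins of strong skew had medians of 0.57, 0.47, and 0.32, so that those at gene ends did not stand above them.

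**Figure D4:**
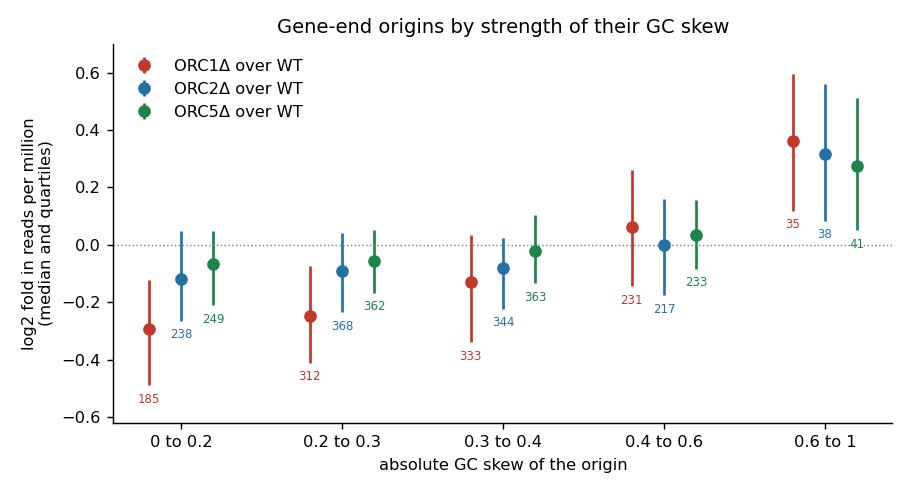
Median log2 fold in RPM (points) with quartiles (bars) of gene-end origins by absolute GC skew, with the number of origins under each bar, for the 3 knockout lines over WT. The medians of the bin from 0.6 to 1 are 0.36, 0.32, and 0.28, and those under 0.2 are −0.29, −0.12, and −0.07.

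Repeats of ATCC, taken as at least 4 tandem copies that may begin at any base and lie on any strand, were in 21, 23, and 25 gene-end origins of the 3 tables. These shares of 1.92%, 1.91%, and 2.00% are near the 2.40%, 2.25%, and 2.20% of all origins, and above the 0.343%, 0.310%, and 0.373% at gene starts. The median log2 fold was 0.56 for *ORC1Δ*, 0.32 for *ORC2Δ*, and 0.39 for *ORC5Δ*, with 8 (38.1%), 4 (17.4%), and 5 (20%) up and 0 down. All origins with the repeat had medians of 0.56, 0.40, and 0.36, with 46.2%, 29.7%, and 21.1% up. In *ORC1Δ* cells 0.299% of them were down, so the 0 down at gene ends does not set gene ends apart. Strong skew went with the repeat, since the median absolute skew of these gene-end origins was 0.708, 0.708, and 0.667, and 13 of 21, 15 of 23, and 16 of 25 also had an absolute skew of at least 0.6. Of the gene-end origins with the repeat, 76.2%, 78.3%, and 80% had more C than G on the strand of the gene. Among all gene-end origins these were 594 of 1096 (54.2%), 651 of 1205, and 691 of 1248. The strand of the repeat itself was not determined.

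The single gene-end origins with the most extreme log2 folds are described next. They were picked for their fold among those with at least 100 reads of both lines, so that their values are a description. The highest in *ORC1Δ* and *ORC2Δ* cells lay inside SLC16A3, which encodes the lactate transporter MCT4, at chr17:82259941-82260905 and 706 bp before the gene end. It had 109 WT and 234 *ORC1Δ* reads, or 17.0 and 35.0 RPM, and its log2 fold was 1.04 (0.71 to 1.38, with 95% Clopper-Pearson intervals here and in what follows). In the table of *ORC2Δ* it had 83 and 211 reads, or 1.11 (0.74 to 1.497), and in that of *ORC5Δ* 81 and 171 reads, or 0.77 (0.38 to 1.17). It was on the 3 knockout lists and not on the WT list, and its skew on the strand of the gene was 0.48.

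The origin beyond TMEM270, at chr7:73866403-73867499, had 248 WT and 461 *ORC1Δ* reads (log2 fold 0.83, 0.61 to 1.06). It had 252 and 547 reads in the table of *ORC2Δ* (0.88, 0.67 to 1.11) and 248 and 499 in that of *ORC5Δ* (0.70, 0.48 to 0.92). It is on all 4 lists and has a skew of −0.85, so it was an origin in WT cells with more reads in each knockout line. The origin beyond C19orf12, a gene for a mitochondrial membrane protein, had 229 WT and 464 *ORC1Δ* reads (0.96, 0.73 to 1.19), 228 and 457 with *ORC2Δ* (0.77, 0.54 to 1.01), and 225 and 444 with *ORC5Δ* (0.67, 0.44 to 0.91).

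Lying across the end of ATP5MC2, which encodes subunit c of the ATP synthase, the origin at chr12:53632041-53632920 held an AATAAA motif and a C-rich stretch. It had 93 WT and 179 *ORC1Δ* reads (0.88, 0.51 to 1.26), 108 and 218 (0.78, 0.44 to 1.13), and 87 and 171 (0.67, 0.28 to 1.05). Beyond SLC45A1, a sugar transporter gene, the origin at chr1:8344576-8345219 had the strongest skew of those named, −0.94, with 75 and 145 reads (0.89, 0.48 to 1.31), 64 and 145 (0.95, 0.51 to 1.39), and 74 and 140 (0.61, 0.19 to 1.04). It was absent from the WT list. The origins of KLK15 (a kallikrein protease), DDT (D-dopachrome tautomerase), and ARHGAP40 (a GTPase-activating protein) were also absent from it, and had log2 folds of 0.92, 0.90, and 0.89 for *ORC1Δ*, 0.73, 0.69, and 0.52 for *ORC2Δ*, and 0.62, 0.67, and 0.74 for *ORC5Δ*.

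A few were seen in fewer tables. The origin beyond SLC35C2 was the highest in *ORC5Δ* cells, with 47 WT and 105 knockout reads (0.85, 0.34 to 1.38), and that inside ZSWIM4 was a row of the *ORC2Δ* table only, with 50 and 103 reads (0.81, 0.31 to 1.33). One with 99 reads, just under the limit and named after its value was seen, lay inside ENSG00000288593 at chr21:43958506-43959064. It had 10 WT and 89 *ORC2Δ* reads, a log2 fold of 2.92 (1.97 to 4.03), and was on the *ORC2Δ* list alone.

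Of the lowest, the origin across the end of ERAL1, a gene for a GTPase of the mitochondrial ribosome, had 72 WT and 28 *ORC1Δ* reads, or 11.2 and 4.18 RPM, a log2 fold of −1.42 (−2.11 to −0.77). It lies at chr17:28860981-28861295 and covers the AATAAA printed above and the gene end at 28861061. In *ORC2Δ* cells it had 51 reads (−0.73, −1.28 to −0.19), and in *ORC5Δ* cells 64 (−0.48, −0.99 to 0.03), so the line with the lowest value was *ORC1Δ*. It was on the WT list alone.

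The next 4 in *ORC1Δ* cells were all rich in GC, from 69.4% to 79.6%. INTS1, for a subunit of the Integrator complex, had 154 WT and 77 *ORC1Δ* reads beyond its end (−1.06, −1.47 to −0.66), but 154 and 164 in the table of *ORC2Δ* (−0.14, −0.47 to 0.18). DRD4, a dopamine receptor gene, had 157 and 79 reads at an origin that overlaps coding sequence (−1.05, −1.46 to −0.65). It had 171 and 163 in the table of *ORC2Δ* (−0.30, −0.62 to 0.02) and 166 and 185 in that of *ORC5Δ* (−0.15, −0.46 to 0.16). The cytochrome P450 gene CYP2W1 had 237 and 125 (−0.98, −1.31 to −0.66), against 237 and 260 (−0.10, −0.36 to 0.16) and 239 and 281 (−0.08, −0.33 to 0.18). B4GALNT4, a glycosyltransferase gene, had 76 and 39 (−1.02, −1.62 to −0.45), and was also below 0 with *ORC2Δ* (76 and 66, −0.44, −0.94 to 0.06) and *ORC5Δ* (76 and 69, −0.45, −0.94 to 0.04). The lower value in *ORC1Δ* cells is the one they were picked for.

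In *ORC2Δ* cells the lowest was beyond ZNF397, a zinc finger gene, at chr18:35267937-35268549. It had 100 WT and 40 *ORC2Δ* reads (−1.56, −2.12 to −1.01), 100 and 87 in the table of *ORC1Δ* (−0.26, −0.69 to 0.17), and 100 and 110 in that of *ORC5Δ* (−0.17, −0.58 to 0.23). Other origins were picked for being low in all 3 tables, which share the WT cells. DDRGK1, which acts in protein modification by UFM1, had 86 WT reads at its end, with 62 in *ORC1Δ* (−0.53, −1.03 to −0.04), 45 in *ORC2Δ* (−1.17, −1.72 to −0.63), and 59 in *ORC5Δ* cells (−0.85, −1.36 to −0.36). TUT4, a terminal uridylyltransferase gene, had 80 WT reads and then 56, 44, and 61 (−0.57, −1.10, and −0.70). SH3GL1, the gene of an endophilin, had 170 and then 109, 139, and 143 (−0.70, −0.52, and −0.56), and LILRA1, a leukocyte receptor gene, had 74 and then 52, 55, and 59 (−0.57, −0.66, and −0.64).

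The remaining named origins were low in some lines. LZTS1 had −1.05 and ENSG00000288636 had −1.02 in *ORC2Δ* cells, with −0.21 and −0.49 in *ORC1Δ* cells. In *ORC5Δ* cells SIN3B, a corepressor gene, had −0.67 (91 and 71 reads) and ALAD, an enzyme of heme synthesis, had −0.64 (73 and 58 reads). ERAL1, B4GALNT4, ZNF397, DDRGK1, TUT4, LZTS1, ENSG00000288636, SIN3B, and LILRA1 were on the WT list alone, and each had at most 100 WT reads.

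**Figure D5:**
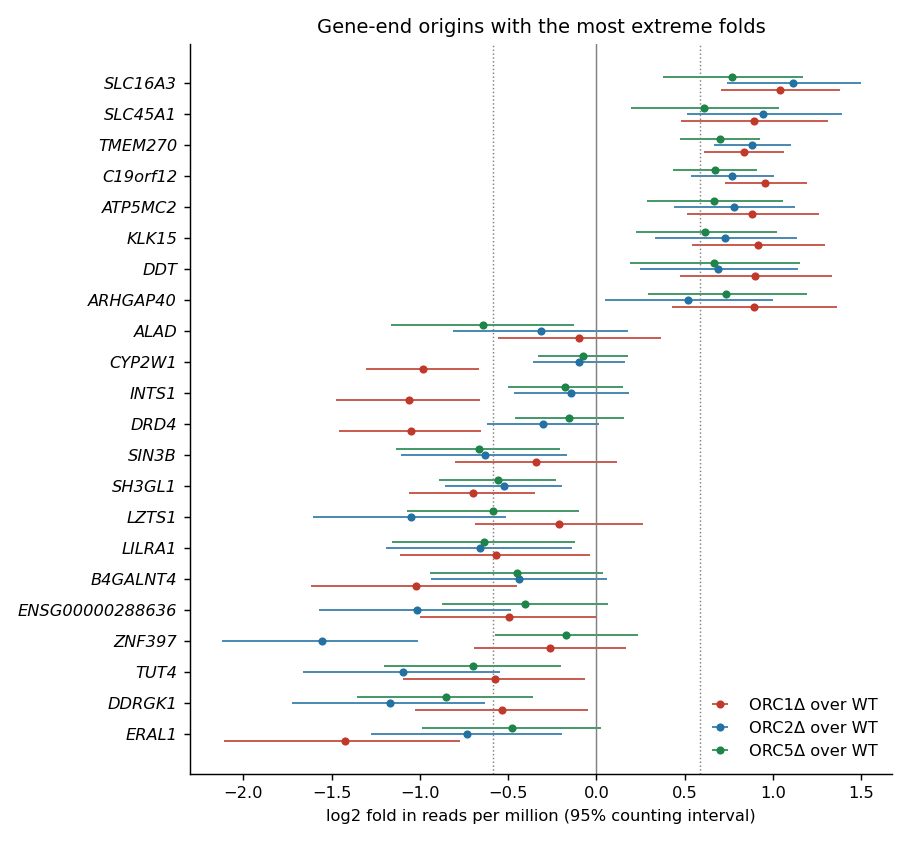
Log2 fold in RPM of each knockout line over WT for the gene-end origins with the most extreme folds that are in all 3 tables, as far as named here, with 95% exact Clopper-Pearson intervals. Dotted lines mark 1.5-fold. The upper 8 lie above 0 in each line, and INTS1, DRD4, and CYP2W1 are low in *ORC1Δ* cells, at −1.06, −1.05, and −0.98.

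The gene-end origins with the most WT RPM had log2 folds between −0.26 and 0.23 in the 3 lines. They are wide, so that reads per origin are not reads per length. TPGS1, for a subunit of the tubulin polyglutamylase, had 1352 WT reads over 1899 bp in the table of *ORC1Δ*, which is 211 RPM or 111 RPM per kb, and 1206 *ORC1Δ* reads (−0.23, −0.34 to −0.11). Its log2 fold was −0.16 in *ORC2Δ* and −0.11 in *ORC5Δ* cells. The origin beyond WDR81 had 1344 WT and 1376 *ORC1Δ* reads (−0.03, −0.14 to 0.08), and 0.23 (0.12 to 0.33) in *ORC2Δ* cells. That of HMG20B, whose product belongs to a histone demethylase complex, had 946 and 861 reads (−0.20, −0.33 to −0.06), with 128 RPM per kb in WT. Those of DDX51 (an RNA helicase), ZFPM1 (the GATA cofactor FOG1), MIB2 (a ubiquitin ligase), and ENSG00000100101 had log2 folds of −0.26 to −0.10 for *ORC1Δ*. Their range was −0.23 to 0.04 for *ORC2Δ* and −0.22 to −0.09 for *ORC5Δ*. At the end of ENSG00000284874, also the end of SEPTIN5 and GP1BB, the table of *ORC2Δ* joins a longer stretch, with 2899 WT and 3230 knockout reads (−0.08), where the table of *ORC1Δ* has 963 and 889 (−0.18).

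Gene groups were counted by their ends. Of 19103 protein-coding genes, 1511 (7.91%) had a gene-end origin. No gene-end origin lay at the end of ORC1, ORC2, or ORC5. Of 21 licensing and helicase genes, 2 had one. GINS3, a subunit of the GINS part of the helicase, had 110 WT and 135 *ORC1Δ* reads (0.24, −0.14 to 0.61), 108 and 108 with *ORC2Δ* (−0.23, −0.63 to 0.16), and 110 and 136 with *ORC5Δ* (−0.0033, −0.38 to 0.37). GINS1, whose end meets that of NINL, had one in the *ORC2Δ* table, with 50 and 84 reads (0.51, −0.0072 to 1.05). Of 19 genes of 3′ end processing and termination, CPSF1, which belongs to the complex that reads the polyadenylation signal, had one at the end it shares with ADCK5, with 314 WT and 297 *ORC1Δ* reads (−0.14, −0.37 to 0.09). None of these was called up or down.

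Among larger groups, 11 of 55 keratin genes (20%) and 5 of 42 collagen genes (11.9%) had a gene-end origin, and 25 of 503 ZNF genes (4.97%), 3 of 81 ribosomal protein genes (3.70%), and 1 of 74 histone genes (1.35%). The keratin genes lie in clusters on chromosomes 12 and 17. Among these, KRT83 had 338 WT and 312 *ORC1Δ* reads (−0.18) and KRT85 had 347 and 362 (0.00069). The 8, 8, and 10 keratin origins of the 3 tables are too few to read their 0 calls against the shares over all origins. Of the origins at ZNF ends, 3 of 25 were down in *ORC1Δ* and 2 of 25 in *ORC2Δ* cells, and their medians were −0.17 and −0.13. Among the 3 was that of ZNF511-PRAP1 (−0.73), a joint record of 2 genes that was counted by its symbol. Down were 6.57% and 3.15% of all gene-end origins, and 3.95% and 3.61% of all origins. The ZNF counts are too few to read against these shares. COL6A1 was the single collagen gene down in *ORC1Δ* cells, with 357 and 235 reads (−0.66, −0.91 to −0.42), at a GC content of 70.9%.

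On chromosome 8, gene-end origins of *ORC1Δ* cells had a median of 0.11 over 45 origins, unlike the −0.15 of all gene-end origins. The other origins of that chromosome also had 0.16 in this line. The median of gene-end origins was above 0 on chromosomes 21 (0.11, 8 origins), 13 (0.07, 9 origins), and 2 (0.0085, 48 origins) as well. Without chromosome 8, the counts for *ORC1Δ* cells were 70 down (6.66%, against 4.15% of all origins) and 26 up (2.47%, against 6.72%) and the median was −0.16 (against −0.03), a check chosen after seeing the data. In *ORC2Δ* and *ORC5Δ* cells, the median of gene-end origins on chromosome 8 was −0.16 and −0.05, against −0.09 and −0.02 for its other origins.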

How the data were processed

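The authors ran MACS2 on each replicate separately, and the origin list of a line is what its replicates share. The submitters' processing notes name Trim Galore 0.6.4, Bowtie, MACS2, bedtools, and GRCh38. The deposited tables hold raw read counts per joined origin, with the replicates of a line merged, and the counting tool and the handling of duplicates are not given in the sources used here. The 4 deposited lists hold positions only, which are coordinates and no score.

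Total counts per line and table were 6416892 to 8523971, and gene-end origins had medians of 127 to 133 WT reads. RPM was taken over all counts of a line in a table, with no pseudocount, and the fold threshold is that of the study's methods. Since each line is 1 column, no edgeR quasi-likelihood test was possible. Shares have 95% Wilson intervals, which treat origins or gene ends as independent. Single log2 folds have 95% Clopper-Pearson intervals, for the counting error of reads only. Gene ends came from GENCODE release 44 on hg38. The members and gene lists were chosen with earlier results of these data known.

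Named were, among gene-end origins with at least 100 reads of both lines, the 5 highest and 5 lowest log2 folds of each table, the 8 highest mean WT RPM, the 5 highest and 5 lowest by the smallest change with the same direction in 3 tables, and those at the ends of ORC1, ORC2, ORC5, licensing genes, and 3′ processing genes. One origin that the rule names is not reported here. The scaling (median-of-ratios, edgeR TMM factors, or none), GC content, read filters, windows, annotation, threshold, and the chromosomes included were varied, with the skew correction and the run without chromosome 8 added after the data were seen. The fold rule and intervals were tested on simulated data. Calculations ran in Python 3.11.15 (scipy 1.17.1, numpy 2.4.6, matplotlib 3.10.9, pysam 0.24.0, pandas 2.3.3), sequence extraction in samtools 1.23.1, and TMM in edgeR 4.0.16 under R 4.3.3.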

Additional observations from a re-analysis of the deposited data

How the results depend on the processing

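No paired analysis was possible because the deposited tables merge the replicates of each line, and for the same reason no replicate could be left out. Of 171 alternative values, 58 moved beyond the limits used (1.5 times for a count) and 2 changed direction. The limit of 50 reads removed no gene-end origin and could change nothing. Without scaling, the median of all origins itself shifts to 0.05 with *ORC1Δ*, 0.19 with *ORC2Δ*, and 0.31 with *ORC5Δ* cells. The median of gene-end origins then became −0.093, 0.16, and 0.28, with *ORC2Δ* and *ORC5Δ* the ones that changed direction. A scaling moves all origins of a line alike, so that gene-end origins minus all origins is −0.14, −0.03, and −0.02 by construction. Unscaled, 44, 64, and 106 were up (4.01%, 5.31%, and 8.49%, against 8.86%, 10.7%, and 11.6% of all origins). In *ORC2Δ* cells 12 were then down (0.996%, against 1.12% of all origins), and in *ORC5Δ* cells 0 (against 0.0739%). The median in *ORC2Δ* cells was −0.031 by median-of-ratios and by TMM scaling. Corrected for GC content, the medians were −0.061, −0.017, and −0.014, with 42 down in *ORC1Δ* cells. Corrected also for absolute GC skew, they were −0.025, −0.0043, and −0.0023, with 16 up and 20 down in *ORC1Δ* and 7 up in *ORC5Δ* cells. A window of 500 bp held fewer origins, with 15 up and 46 down in *ORC1Δ*, 6 up in *ORC2Δ*, and 6 up in *ORC5Δ* cells, and 70.8% on both lists in the table of *ORC2Δ*. A window of 2 kb held more, with 63, 33, and 23 up, 118, 64, and 13 down, a median of −0.14 in *ORC1Δ* cells, absolute skew of 0.327, 0.308, and 0.311, and 64.6% on both lists in the table of *ORC5Δ*. At over 5 kb from gene starts, the median in *ORC1Δ* cells was −0.13. With the origin midpoint inside the window, 9 were up in *ORC2Δ* and 6 in *ORC5Δ* cells. With ends of basic transcripts, 54 were up in *ORC1Δ*, 26 up in *ORC2Δ*, and 14 down in *ORC5Δ* cells. At 200 reads or more, 16 were up in *ORC1Δ* cells, and 39, 13, and 0 were down in the 3 lines. At 2-fold, 1, 2, and 0 were up and 4, 6, and 0 down. No share of all origins at 2-fold is given here, so these counts are not read against one. By presence on the lists alone, 156, 253, and 297 were on the knockout list only and 263, 137, and 105 on the WT list only. In 500 bp around the midpoint, median GC content was 56.6% and 56.8% in the first 2 tables. The counts and medians without chromosome 8, and without the first parts of chromosomes 2, 5, and 6, stayed within the limits. Beyond fewer or more origins entering, the cause of these shifts was not tested. Depth limits single origins, as their counting intervals show.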
